A study of Mus musculus with 48 samples.

Results

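The last steps of protein digestion and the uptake of its products take place at the brush border of the enterocyte, the absorptive cell of the intestinal villus. The 9 genes described here encode 2 peptidases of that surface (Anpep and Dpp4) and 7 amino acid or peptide transporters or transporter subunits (Slc15a1, Slc6a19, Slc7a9, Slc3a1, Slc1a1, Slc7a8 and Slc7a7). They were taken by gene symbol from the tables of duodenal, jejunal and ileal villi, and all 9 were listed in each of the 3 tables, out of 11225 genes listed in at least 1 of them. Every member passed the minimum of a mean of 1 CPM in every segment (CPM, the counts of a gene scaled to a common library total).

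The mice were male C57Bl6 animals with diet-induced obesity that had eaten a high fat diet. One group underwent Roux-en-Y gastric bypass (RYGB), which connects a pouch made from the upper stomach directly to the jejunum and so excludes the stomach remnant and the duodenum from the path of food, and the other had sham surgery. Both groups received an elemental liquid diet after the operation, were fasted overnight and were killed in the morning, 9 days after surgery. Villi were scraped off in cold EDTA, so the samples are mixed villus tissue and not sorted cells. There were 3 RYGB and 4 sham libraries of duodenum, 3 and 4 of jejunum, and 5 and 5 of ileum. The labels number the samples without naming animals, so the p-values measure the spread between these samples. They do not say which limb of the rearranged gut the jejunal villi came from either.

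Brush-border peptidases trim the peptides left by gastric and pancreatic enzymes to amino acids and very short peptides. Di- and tripeptides enter the enterocyte with protons through PepT1, while free amino acids use separate carriers for neutral, cationic and acidic side chains. Several of these carriers work only as pairs of proteins, and a separate set on the basolateral side passes the amino acids on to the blood. In humans, loss of the neutral carrier B0AT1 causes Hartnup disorder, and loss of either subunit of the cystine carrier causes cystinuria.

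The labels of the segments were checked against regional genes. The duodenal libraries held Pdx1, a duodenal transcription factor, at 14.5 to 159.9 CPM, and the jejunal libraries at 0.5 to 7.4 CPM. The libraries labelled ileum went against their label in part. Fabp6, the ileal bile acid binding protein, reached at most 50.5 CPM there, and the ileal bile acid transporter Slc10a2 at most 53.7 CPM. Gata4, a factor of the intestine above the distal ileum, lay between 105 and 183.2 CPM, and Lct, the lactase gene of the proximal and middle intestine, between 3032.5 and 6703.6 CPM. The proximal factor Onecut2 went with the label, at 1.2 to 26.9 CPM against 44.5 to 138 CPM in the jejunum, and the distal gene Osr2 lay at 22.2 to 68.9 CPM against 14.2 to 36.4 CPM. These libraries are therefore called labelled ileum throughout. They also differ by sequencing lane, since all 5 RYGB libraries carry lane 1 in their labels and the 5 sham libraries lanes 2 and 3, so that an effect of lane cannot be told apart from one of surgery there. In the jejunum RYGB replicate 2 carries lane 2 and the other 6 libraries lane 1, and all 7 duodenal libraries share lane 2. Library depth is unknown, since CPM rounded to 0.1 hold no totals.

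The sequence upstream of the start site is shown for 3 members: Slc15a1 and Slc6a19, which were both lower after RYGB in the labelled ileum, and Slc3a1, whose estimate there was close to 0. Each window is the 250 bases before the RefSeq start on the gene's own strand, in the mouse build GRCm38.p6. They lie at chr14:121505255-121505504 (minus strand), chr13:73692637-73692886 (minus strand) and chr17:85028097-85028346 (plus strand), and none holds a base annotated as an exon in GENCODE M21, although the window of Slc6a19 lies within the gene as annotated there. Capitals mark matches, on either strand, to 6 motifs. The letters searched were GTTAAT for the half-site of the factor HNF1 and CAAAGTCCA for a site of HNF4. Those for the intestinal factors of the CDX and GATA families were TTTATG for the former family and AGATAA for the latter family. The letters of the Sp1 box were GGGCGG, and those of the core promoter element called the TATA box were TATAAA.
Slc15a1: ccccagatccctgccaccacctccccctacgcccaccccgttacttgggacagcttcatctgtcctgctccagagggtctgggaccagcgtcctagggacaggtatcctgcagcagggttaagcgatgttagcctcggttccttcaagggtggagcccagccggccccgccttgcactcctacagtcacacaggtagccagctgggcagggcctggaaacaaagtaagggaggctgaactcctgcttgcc
Slc6a19: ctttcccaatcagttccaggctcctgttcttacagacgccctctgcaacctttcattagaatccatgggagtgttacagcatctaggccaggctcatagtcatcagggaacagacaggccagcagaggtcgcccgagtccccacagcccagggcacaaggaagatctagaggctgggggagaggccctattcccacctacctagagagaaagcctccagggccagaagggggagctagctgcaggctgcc
Slc3a1: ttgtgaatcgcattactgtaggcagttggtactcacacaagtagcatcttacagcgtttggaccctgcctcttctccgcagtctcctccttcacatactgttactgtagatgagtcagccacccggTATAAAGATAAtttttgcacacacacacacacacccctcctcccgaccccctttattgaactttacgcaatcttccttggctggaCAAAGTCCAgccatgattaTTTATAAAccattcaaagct
The windows of Slc15a1 and Slc6a19 held none of these letters. That of Slc7a8, which was also lower in the labelled ileum but is not printed, held 1 Sp1 match. The window of Slc3a1 held 1 HNF4 match, 1 GATA match that overlaps a TATA match, and 3 TATA matches in all, of which 2 overlap on opposite strands. Of 32851 RefSeq windows of the same length, 0.384% held the HNF4 letters, 9.99% the GATA letters and 12.4% the TATA letters. The shares for the HNF1 half-site, the CDX site and the Sp1 box were 6.43%, 10.8% and 32.7%. These matches describe the letters only.

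**Figure D1:**
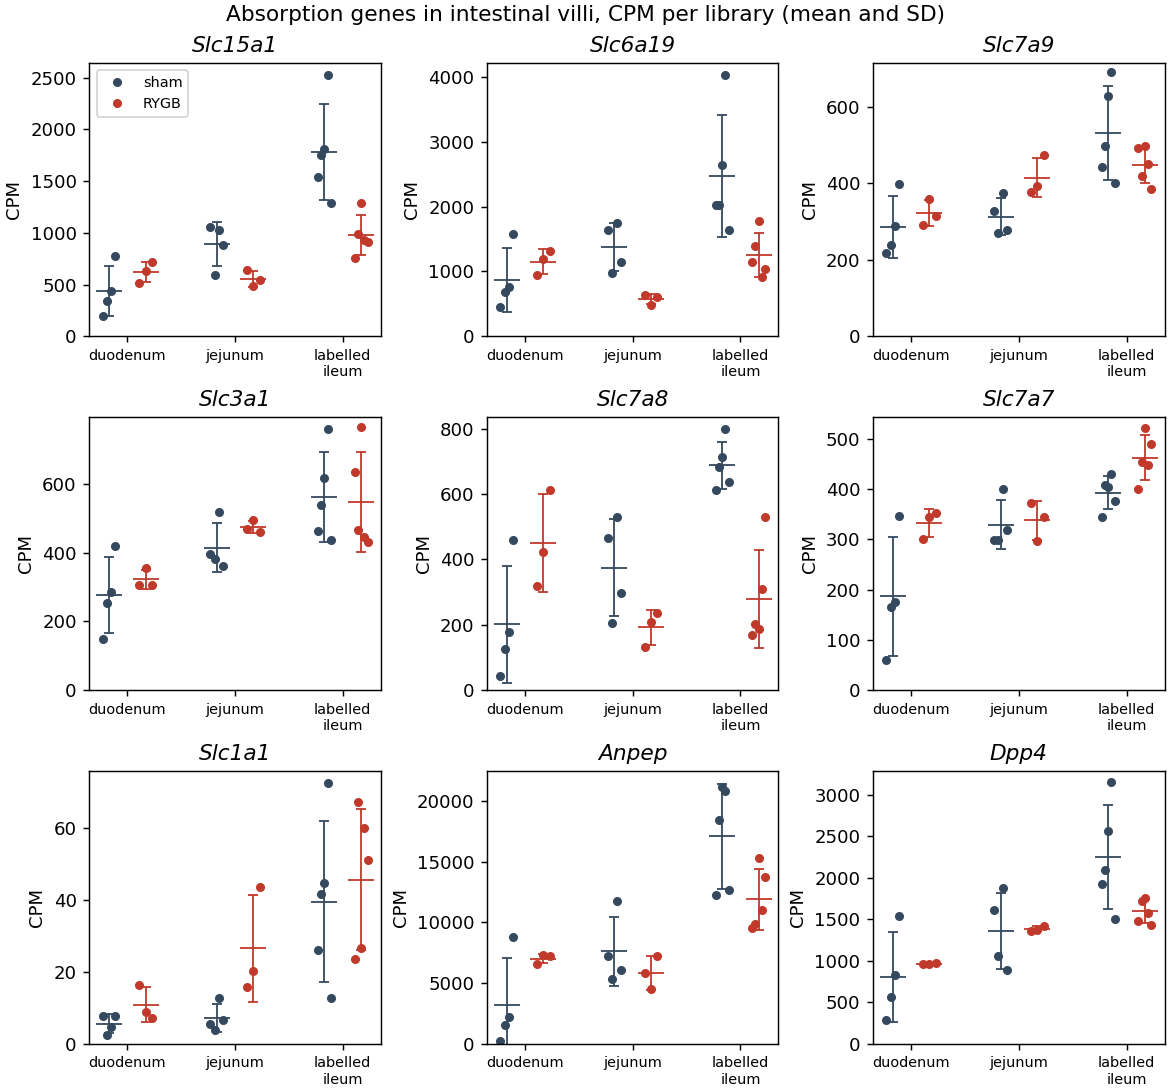
Level of the 9 absorption genes in CPM (vertical axis, from 0) in each library, by segment (horizontal axis) and surgery (dark, sham; red, RYGB). Points are libraries, the wide dash is the mean and the bars are the SD (n = 3 to 5 per group). The bar of Anpep in the duodenal sham group runs below the axis. Slc7a8, Slc15a1 and Slc6a19 are lower after RYGB in the labelled ileum, and Slc6a19 also in the jejunum.

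Before surgery is considered, the levels in the sham libraries give the order of the segments and of the genes. The sham mean of all 9 members was lowest in the duodenum, higher in the jejunum and highest in the labelled ileum. Since each table was normalized on its own, this order is a description without a test, and the ranges of neighbouring segments overlapped in 14 of 18 cases. The exceptions were Slc15a1, Slc7a9, Slc7a8 and Anpep, whose jejunal and labelled ileal libraries did not overlap. The level of Anpep in CPM, for example, had a mean of 3192 ± 3840 in the duodenum (SD, n = 4), 7603 ± 2872 in the jejunum (n = 4) and 17073 ± 4331 in the labelled ileum (n = 5). In the RYGB libraries this order of means held for 5 of the 9 members. Slc15a1, Slc6a19, Slc7a8 and Anpep had a lower RYGB mean in the jejunum than in the duodenum, and for Slc6a19 and Slc7a8 the ranges of these segments did not overlap.

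Levels of different genes were compared per kilobase of annotated exon. Among the labelled ileal sham libraries Anpep had the highest level, with a mean of 4134 CPM per kb. Next came Slc6a19 at 494, Slc15a1 at 365 and Dpp4 at 356 CPM per kb. Slc3a1 at 247, Slc7a9 at 199, Slc7a8 at 138 and Slc7a7 at 119 CPM per kb followed, and Slc1a1 was lowest at 4.79 CPM per kb. The peptidase Anpep thus stood above every transporter of the group, and the glutamate carrier Slc1a1 far below the others.

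In the labelled ileum 3 of the 9 members were called lower after RYGB, and no member was called higher. A gene was called when limma gave a Benjamini-Hochberg adjusted p under 0.05 over all genes tested together with a fold change of at least 1.5, and this held for 6.05% of the 10735 genes tested there, 4.42% in the lower and 1.64% in the higher direction. Estimates were below 0 for 7 members and for 61.6% of all genes. Of all calls 27.1% were higher, and 46.6% with median ratio scaling. The median log2 fold change on log2(CPM + 1) was −0.45 over the 9 members and −0.09 over all genes tested. The 3 that fell transport free neutral amino acids or short peptides. In villi, a lower value can come from fewer enterocytes or from less RNA in each, and these cannot be told apart here. An alternative chosen after seeing the data shifted each library by its mean of the enterocyte genes Vil1 and Cdh17. With it Slc7a8 (−1.46, adjusted p = 0.0131), Slc6a19 (−0.97, adjusted p = 0.0213) and Slc15a1 (−0.88, adjusted p = 0.0111) passed in limma. The shift was small here, and it moved the median of all genes from −0.09 to −0.12. On average Vil1 was lower after RYGB (4512 against 4846 CPM) and Cdh17 higher (2613 against 2327 CPM).

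Slc7a8 encodes LAT2, the basolateral light chain that passes neutral amino acids toward the blood. Its level in the 5 RYGB libraries labelled ileum was 167.5, 201.1, 187.4, 307.6 and 530.8 CPM, and in the 5 sham libraries 613.4, 681, 712, 797.1 and 636.2 CPM. Every RYGB library lay below every sham library, with RYGB replicate 5 nearest to them. The log2 fold change was −1.43 ± 0.27 (SE; limma, adjusted p = 0.0117), which is 0.37 times the sham level. It passed the threshold in every alternative that was run, with adjusted p between 0.00124 and 0.0355.

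Slc15a1 encodes PepT1, the only member that carries intact di- and tripeptides. The RYGB libraries held 761.3, 989.3, 1285.2, 933.9 and 915.7 CPM, and the sham libraries 1537.9, 1750.1, 1808.3, 2524.7 and 1293.3 CPM. The groups did not overlap, although RYGB replicate 3 and sham replicate 5 nearly met. The log2 fold change was −0.85 ± 0.19 (SE; limma, adjusted p = 0.0212). The call was lost with median ratio scaling (−0.74, adjusted p = 0.0742) and without sham replicate 3 (−0.84, adjusted p = 0.0546).

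Slc6a19 encodes B0AT1, the main apical carrier of neutral amino acids. Its level was 1150.7, 1397.9, 1780.6, 919.5 and 1031.8 CPM in the RYGB libraries and 2029.1, 2023.9, 2641.1, 4032.6 and 1645.4 CPM in the sham libraries. RYGB replicate 3 lay above sham replicate 5, and the other libraries were separated. The log2 fold change was −0.94 ± 0.25 (SE; limma, adjusted p = 0.0392), and the call was lost in 8 of the 10 fits that left out 1 library, with adjusted p between 0.0259 and 0.092 over the 10. The 8 are those without RYGB replicates 1, 2, 4 and 5 and without sham replicates 1, 2, 3 and 4. With median ratio scaling the value was −0.84 (adjusted p = 0.111). A count of 2 members lay wholly below the sham libraries, a pattern that 6.92% of the genes tested shared.

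The other 6 members did not pass in the labelled ileum. The peptidases Anpep, aminopeptidase N, and Dpp4, which removes dipeptides from the amino end of peptides, had log2 fold changes of −0.51 ± 0.25 (adjusted p = 0.21) and −0.45 ± 0.18 (adjusted p = 0.14, both limma). Anpep lay between 9513.1 and 15323.6 CPM after RYGB and between 12246.1 and 21186.5 CPM after sham, so the groups overlapped. The pair of the cystine and cationic carrier, the light chain Slc7a9 and the heavy chain Slc3a1, had values of −0.22 ± 0.16 and −0.04 ± 0.19, with 95% intervals of −0.56 to 0.12 and −0.47 to 0.38. Slc7a7, the basolateral light chain y+LAT1 for cationic amino acids, had 400.9 to 520.9 CPM after RYGB and 344.6 to 429.5 CPM after sham. Its log2 fold change was 0.23 ± 0.10, with a 95% interval of 0.006 to 0.46 (limma, adjusted p = 0.177). Slc1a1, the carrier of glutamate and aspartate, spread from 23.6 to 67.3 CPM and from 12.7 to 72.6 CPM, and its interval of −0.62 to 1.21 leaves both directions possible.

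**Figure D2:**
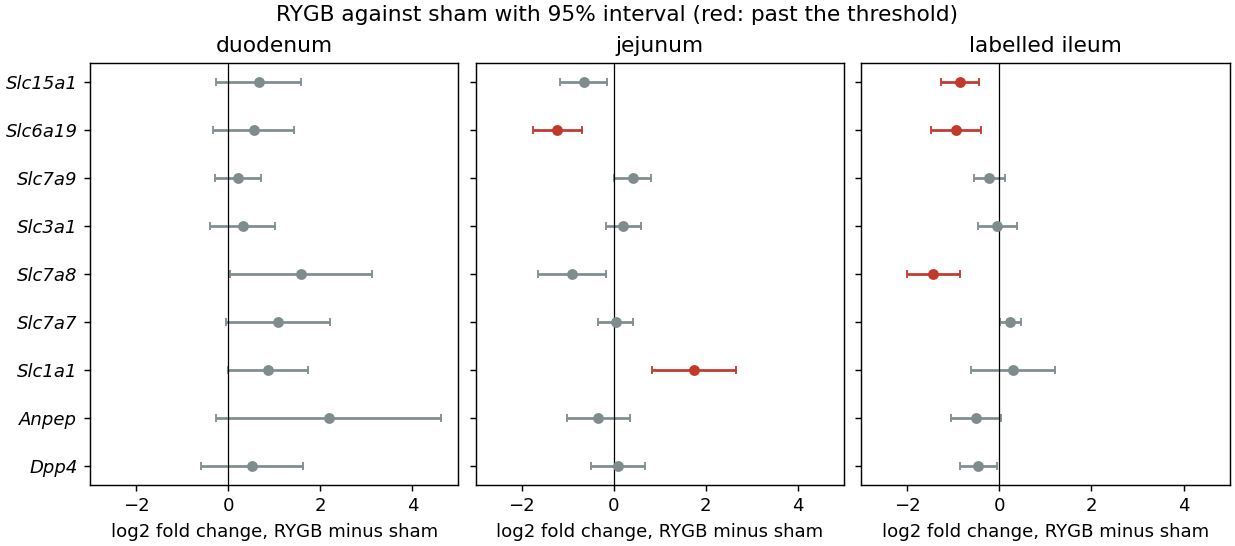
Log2 fold change of the 9 absorption genes on log2(CPM + 1), RYGB minus sham (horizontal axis), in each segment, as limma estimate with its 95% interval. Red points passed the threshold. In the labelled ileum 3 genes lie below 0 in red, in the jejunum 1 below and 1 above, and in the duodenum all 9 estimates lie above 0 with none past the threshold.

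Other cell types and regional genes also moved in the labelled ileum. Of 7 leukocyte markers 6 were listed and 3 fell (Ptprc, Cd3e and Cd8a), with a summed level of 21 to 47.8 CPM after RYGB and 43.8 to 82.2 CPM after sham. Of 10 enterocyte markers, all listed, Fabp1 rose and Lct fell, and their sums were 71750 to 99143 CPM and 56285 to 83030 CPM. Of the 3 distal markers Slc10a2 rose, and of the 2 proximal markers listed Onecut2 fell. Slc10a2 was at 1.6 to 53.7 CPM after RYGB and at 0.2 to 2.5 CPM after sham. It was listed through the RYGB libraries, which sets the direction of its call. Paneth cell markers summed to 37.4 to 100.1 CPM and 16.6 to 55 CPM, with none of the 3 listed called, and no neutrophil or smooth muscle marker was listed. The 1 stromal marker listed of 6, Vim, fell (0.8 to 1.5 CPM against 2.1 to 3.5 CPM). Its level was near the minimum for listing, and it was listed through the sham libraries, which sets the direction of its call. The part of these genes and cells in the fall of Slc7a8, Slc15a1 and Slc6a19 was not tested.

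In the jejunum 2 of the 9 members passed, Slc6a19 in the lower and Slc1a1 in the higher direction, where 9.75% of 10854 genes were called, 4.62% of them higher and 5.13% lower as shares of all genes tested. The median log2 fold change was 0.04 over the members and −0.04 over all genes, and 4 members and 54.5% of all genes had an estimate below 0. The level of Slc6a19 was 635.9, 485.8 and 604.4 CPM in the RYGB libraries and 1643.4, 978, 1744.9 and 1148.7 CPM in the sham libraries. All RYGB libraries lay below all sham libraries, as for 12.5% of all genes. The log2 fold change was −1.23 ± 0.24 (SE; limma, adjusted p = 0.012), or 0.427 times the sham level.

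Slc1a1 was the only member called higher in any of the 3 segments, and it rose from a low level. Its values were 15.7, 20.3 and 43.6 CPM after RYGB and 5.5, 3.7, 12.8 and 6.7 CPM after sham. RYGB replicate 3 was the highest library, and sham replicate 3 came closest to the RYGB group. The log2 fold change was 1.74 ± 0.41 (SE; limma, adjusted p = 0.0275). It was lost in 5 of the 7 fits that left out 1 library (without RYGB replicates 2 and 3 and sham replicates 1, 2 and 4), with adjusted p up to 0.0743.

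Both jejunal calls were lost without RYGB replicate 2, the library from another lane. Without it, Slc6a19 had −1.11 (adjusted p = 0.0612) and Slc1a1 1.85 (adjusted p = 0.064). A fit with lane as a term gave the same estimates, with adjusted p of 0.0594 and 0.0643. No other jejunal library carries lane 2, so the lane term takes this library out and is not a separate check. The log2 fold changes kept their direction.

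Slc7a8 and Slc15a1 lay lower on average in the jejunum as well but did not pass. Slc7a8 held 132.7, 207 and 235.5 CPM after RYGB and 464.4, 206.3, 529.2 and 298.1 CPM after sham, and sham replicate 2 was within the RYGB range. Its log2 fold change was −0.91 ± 0.33 (limma, adjusted p = 0.117). Slc15a1 held 639.1, 487.9 and 544.2 CPM and 1061.3, 592.8, 1031.3 and 878.9 CPM, again with sham replicate 2 among the RYGB libraries, and its value was −0.65 ± 0.23 (adjusted p = 0.108). Without sham replicate 2 both passed, at −1.16 (adjusted p = 0.0357) and −0.83 (adjusted p = 0.0296).

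The cystine carrier pair lay slightly higher on average in the jejunum. Slc7a9 was at 378.2, 392.8 and 472.9 CPM after RYGB and at 327.7, 270.4, 374.7 and 277 CPM after sham, so that all RYGB libraries lay above all sham libraries, as did those of Slc1a1, a pattern shared by 9.75% of all genes tested. The difference of 0.41 ± 0.18 did not pass (limma, adjusted p = 0.186). Slc3a1 had a log2 fold change of 0.21 ± 0.17, with a 95% interval of −0.18 to 0.60. The remaining 3 members had intervals that included 0: Slc7a7 (−0.34 to 0.43), Dpp4 (−0.49 to 0.68) and Anpep (−1.02 to 0.35). Dpp4 spread from 887.7 to 1878.8 CPM among the sham libraries and only from 1362.1 to 1418.3 CPM among the RYGB libraries.

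In the jejunum the sum of the 10 enterocyte markers was 50525 to 85333 CPM after RYGB and 86763 to 118508 CPM after sham, without overlap, and Lct and Apoa4 fell. The structural enterocyte genes Vil1 and Cdh17 went the other way, with all RYGB libraries above all sham libraries. Vil1 was at 4151.3 to 4328.6 CPM against 3119.9 to 4149.5 CPM, and Cdh17 at 2983.5 to 3114.4 CPM against 1741.8 to 2444.2 CPM. All 3 listed Paneth cell markers rose (summed level 87.6 to 193.2 CPM against 14.6 to 41.4 CPM), and 3 of 6 listed leukocyte markers fell (30.9 to 46.6 CPM against 53.9 to 66.9 CPM). With each library shifted by its mean of Vil1 and Cdh17, an alternative chosen after seeing the data, Slc6a19 (−1.59), Slc7a8 (−1.27) and Slc15a1 (−1.01) all passed in the lower direction and Slc1a1 (1.38) in the higher. That shift moved the median of all genes from −0.04 to −0.40 and the share of calls that were higher from 47.4% to 13.7%. The part of cell composition in the jejunal values was not tested.

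In the duodenum none of the 9 members passed, where 0.00922% of 10850 genes were called by limma, a single gene (Ephx1, lower, named after its value was seen). At an unadjusted p under 0.05 there were 2040 genes (18.8%) and 1 member, Slc7a8. All 9 estimates were above 0, with a median of 0.66 against 0.12 over all genes, of which 33.4% had an estimate below 0. Median ratio scaling moved the median of all genes to 0.00 and left all 9 estimates above 0. The groups overlapped for all 9 members, while they did not overlap for 15.6% of all genes.

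The sham libraries of the duodenum stood far apart from each other. Anpep was at 186.2, 1555.9, 2213.5 and 8810.9 CPM in them, a 47.3-fold range, and at 6581.2, 7273.2 and 7209.2 CPM in the RYGB libraries. Slc7a8 was at 42.2, 126.2, 176 and 457.8 CPM in the sham libraries and at 317.2, 422 and 613.3 CPM in the RYGB libraries. Sham replicate 1 was the lowest sham library for 8 of the 9 members, and sham replicate 4 the highest for all 9. The RYGB range lay within the sham range for 6 members, and the SD in CPM was smaller after RYGB for 8.

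Regional genes followed the same split of the duodenal sham libraries in part. Lct was at 149.4, 1512.7, 1881 and 4681.5 CPM and Pdx1 at 159.9, 65.8, 47.3 and 14.5 CPM in sham replicates 1 to 4, so that the library lowest in the absorption genes was the lowest in Lct and the highest in Pdx1. Osr2, a distal gene, was listed at 0 in sham replicate 1 and at 13 CPM in sham replicate 4. Gata4 and Onecut2 were also highest in sham replicate 1 but did not keep the order of Pdx1. In sham replicates 1 to 4 Gata4 was at 233.2, 214, 136 and 150.1 CPM, and Onecut2 at 382.1, 186.7, 345.2 and 130 CPM. In the RYGB libraries Pdx1 lay between 16.9 and 75 CPM. Whether the sham villi came from different positions along the duodenum was not tested. The 10 enterocyte markers summed to 48372 to 61750 CPM after RYGB and 61807 to 75140 CPM after sham, with RYGB below. Within that list the mean was higher after RYGB for Vil1 (3413 against 2612 CPM) and Lct (3264 against 2056 CPM). It was lower for Cdh17 (2013 against 2145 CPM), Sis (4824 against 8239 CPM) and Alpi (4347 against 5393 CPM). The crypt markers listed (3 of 5) summed to 26.1 to 119.2 CPM after RYGB and 3.8 to 20.2 CPM after sham, without overlap, and the leukocyte markers (6 of 7) to 55.4 to 131.9 CPM and 27 to 63.3 CPM. The 1 pancreatic acinar marker listed of 5 ran from 7.1 to 4817.2 CPM among the sham libraries and from 5.9 to 517.5 CPM among the RYGB libraries. None of these markers was called, and their part in the members' values was not tested.

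The largest estimates of the duodenum had wide errors. Anpep had a log2 fold change of 2.18 ± 1.07 (limma, adjusted p = 0.308), Slc7a8 1.58 ± 0.68 (adjusted p = 0.256) and Slc7a7 1.08 ± 0.49 (adjusted p = 0.28). Without sham replicates 1 and 4, a choice made after seeing the data, these 3 passed, at 1.92, 1.54 and 0.96. Without sham replicate 1 alone the estimates were smaller, at 1.17 for Anpep (adjusted p = 0.337), 1.00 for Slc7a8 (adjusted p = 0.302) and 0.62 for Slc7a7 (adjusted p = 0.295). Without sham replicate 4 alone Slc7a8 passed, at 2.14 (adjusted p = 0.0466), and 757 genes were called. Slc15a1, at 519, 629.9 and 715.2 CPM against 195.4, 343.6, 442 and 774.4 CPM, had 0.66 ± 0.41, and Slc6a19 had 0.55 ± 0.39. Dpp4 was almost equal in the RYGB libraries, at 959.8, 961.7 and 966.6 CPM, and ran from 288.6 to 1544.5 CPM in the sham libraries.

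**Figure D3:**
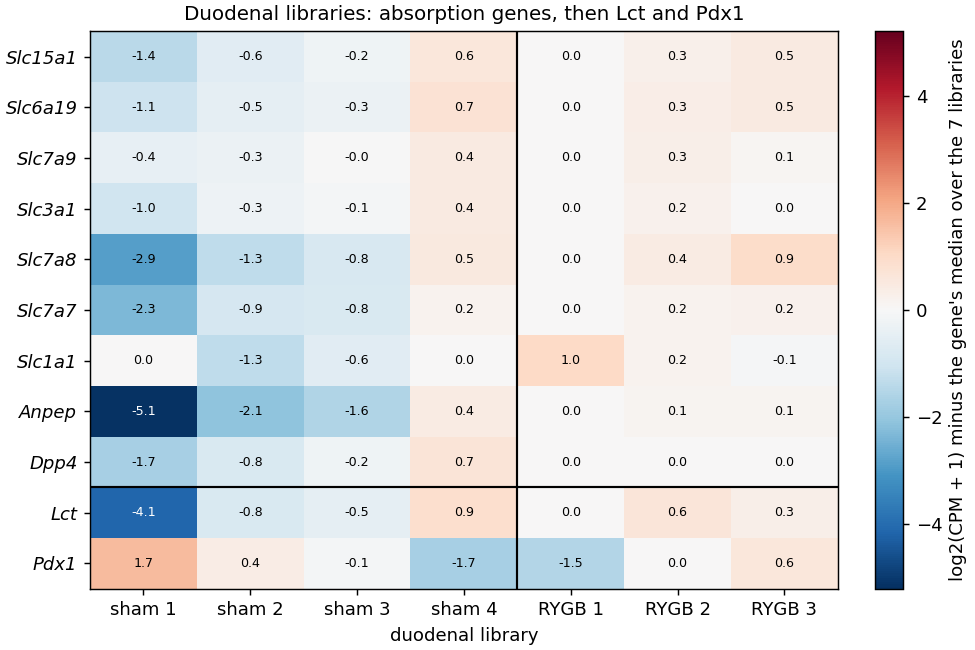
Each cell gives log2(CPM + 1) of a gene in a duodenal library minus the gene's median over the 7 libraries, with the 9 absorption genes above the line and Lct and Pdx1 below it (blue, lower; red, higher). Sham replicate 1 is low and sham replicate 4 high for nearly all absorption genes and Lct, with Pdx1 in the opposite order, while the 3 RYGB libraries span less than the sham libraries for most of the genes.

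Several members act with a partner protein, and a ratio of partner transcripts within a library does not depend on how libraries were scaled. The light chains LAT2 and y+LAT1 share the heavy chain 4F2hc (Slc3a2), and b0,+AT (Slc7a9) pairs with rBAT (Slc3a1). The log2 ratio of the partners was compared between groups by an exact two-sided permutation test over libraries, with Benjamini-Hochberg adjustment over 12 tests. With 5 against 5 libraries the smallest p is 0.00794, and with 3 against 4 it is 0.0571, so the duodenum and the jejunum could not pass.

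Both ratios with Slc3a2 differed in the labelled ileum with no overlap between groups, each at the smallest p (exact permutation test, p = 0.00794, adjusted p = 0.0317). The ratio of Slc3a2 to Slc7a8 was 0.64 ± 0.48 after RYGB and −0.42 ± 0.12 after sham (SD, n = 5 each), a difference of 1.06.

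The ratio of Slc3a2 to Slc7a7 moved the other way, from 0.39 ± 0.07 after sham to −0.23 ± 0.24 after RYGB, a difference of −0.61. The light chains that share this heavy chain thus changed unequally relative to it, while Slc3a2 had −0.38 ± 0.15 (limma, adjusted p = 0.141). The ratio of Slc3a1 to Slc7a9 was 0.26 ± 0.24 and 0.08 ± 0.07, and the groups overlapped (exact permutation test, adjusted p = 0.229).

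In the jejunum the ratio of Slc3a2 to Slc7a7 was −0.30 ± 0.07 after RYGB (n = 3) and 0.16 ± 0.27 after sham (n = 4). The groups did not overlap, and the difference was at the smallest p the design allows (exact permutation test, p = 0.0571, adjusted p = 0.137). The ratio of Slc3a2 to Slc7a8 ranged from 0.14 to 1.19 after RYGB and from −0.36 to 0.56 after sham. In the duodenum all 3 ratios overlapped between groups, and sham replicate 1 gave the highest ratio of Slc3a2 to Slc7a8, at 1.93.

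**Figure D4:**
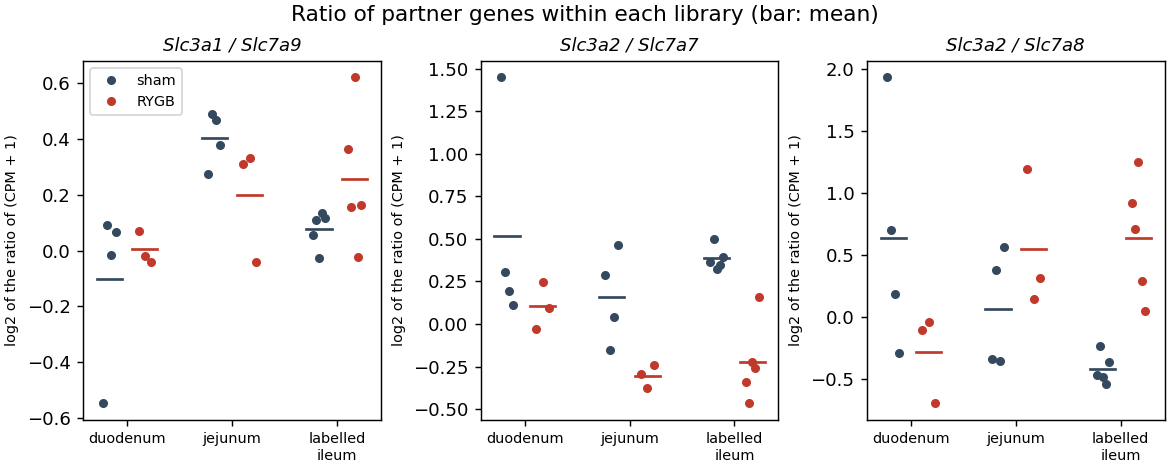
Log2 of the ratio of partner genes (CPM + 1 of each) within each library (vertical axis) by segment, for sham (dark) and RYGB (red). Points are libraries and bars are means. In the labelled ileum the groups are separated for Slc3a2/Slc7a7 and Slc3a2/Slc7a8 but not for Slc3a1/Slc7a9.

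Around the members, 38 further genes of apical transport, basolateral transport and peptide digestion were examined, of which 31 were tested in each segment. In the duodenum none was called. In the jejunum 6 fell and 1 rose, with a median log2 fold change of −0.36 over the 31, against 5.13% lower, 4.62% higher and a median of −0.04 over all genes. The labelled ileum had 7 that fell and 1 that rose, with a median of −0.24, against 4.42% lower, 1.64% higher and a median of −0.09. Of those that fell, 1 in the jejunum and 2 in the labelled ileum averaged under 1 CPM after RYGB and were listed through the sham group. That leaves 5 in each segment. The alternatives were run for the members and not for these genes one by one. In the jejunum the calls of the members were lost without RYGB replicate 2, the library from another lane.

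Among the apical genes Slc6a20a, which encodes a carrier of proline and other imino acids, changed most in the jejunum. It was at 20.7, 25.1 and 13.9 CPM after RYGB and at 258.9, 327.6, 405.3 and 424.8 CPM after sham, far apart in every library (log2 fold change −4.10 ± 0.24; limma, adjusted p = 7.03e-05). Its levels in the labelled ileum were 66.8, 151.5, 62.1, 106.6 and 262.4 CPM against 218.2, 378.1, 391.8, 236.3 and 499.4 CPM, with RYGB replicate 5 inside the sham range (−1.54 ± 0.37; adjusted p = 0.0289). In the duodenum the range of 264.4 to 420.2 CPM lay within the sham range of 62.8 to 738.5 CPM. The neighbouring paralog Slc6a20b was called lower in both segments but was near 0. In the jejunum it was listed at 0 in all RYGB libraries and at 1.7 to 3.3 CPM after sham, and in the labelled ileum it was at 0 to 1.2 CPM and 1.1 to 3.5 CPM. It entered these tables through the sham libraries, since a gene was listed only when enough libraries reached 1 CPM. Whether reads were shared between the paralogs was not tested.

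A further 2 apical genes were called, each in 1 segment. Pdzk1, a scaffold protein of the brush border, fell in the jejunum (−0.67 ± 0.18; limma, adjusted p = 0.0398). Slc6a18, which encodes the neutral carrier B0AT3, fell in the labelled ileum (−1.56 ± 0.42; adjusted p = 0.0421), with a mean of 0.46 CPM after RYGB and 4.46 CPM after sham. It was tested in that segment only, and it was listed there through the sham libraries (1.2 to 13.7 CPM, against 0.1 to 1 CPM after RYGB), which sets the direction of its call.

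On the basolateral side Slc16a10, the carrier TAT1 for aromatic amino acids, fell in both segments. Its mean level was 224 ± 12.3 CPM after RYGB (n = 3) and 473 ± 143 CPM after sham (n = 4) in the jejunum (log2 fold change −1.03 ± 0.24; limma, adjusted p = 0.0252). The labelled ileal means were 265 ± 78.6 CPM and 671 ± 89.6 CPM (n = 5 each, log2 fold change −1.38 ± 0.18; adjusted p = 0.00416). Slc43a2, the uniporter LAT4, fell in the labelled ileum (−0.74 ± 0.16; adjusted p = 0.0176). The genes that rose were Slc7a1, the cationic carrier CAT1, in the jejunum (1.70 ± 0.40; adjusted p = 0.0276) and Slc38a1, the neutral carrier SNAT1, in the labelled ileum (0.65 ± 0.17; adjusted p = 0.0386).

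Of the peptidases, Ace, a dipeptidyl carboxypeptidase of the brush border, fell in both segments. Its mean was 1285 ± 339 CPM after RYGB and 3283 ± 1149 CPM after sham in the jejunum (−1.31 ± 0.32; limma, adjusted p = 0.0308). The labelled ileal means were 2378 ± 348 CPM and 5826 ± 957 CPM (−1.29 ± 0.17; adjusted p = 0.00343). Mep1a, the alpha subunit of the metalloprotease meprin, fell in the jejunum (−1.69 ± 0.25; adjusted p = 0.0034), and Mme, neprilysin, fell in the labelled ileum (−0.76 ± 0.17; adjusted p = 0.0216). The other 13 peptidases tested in the jejunum and the other 12 in the labelled ileum did not pass.

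**Figure D5:**
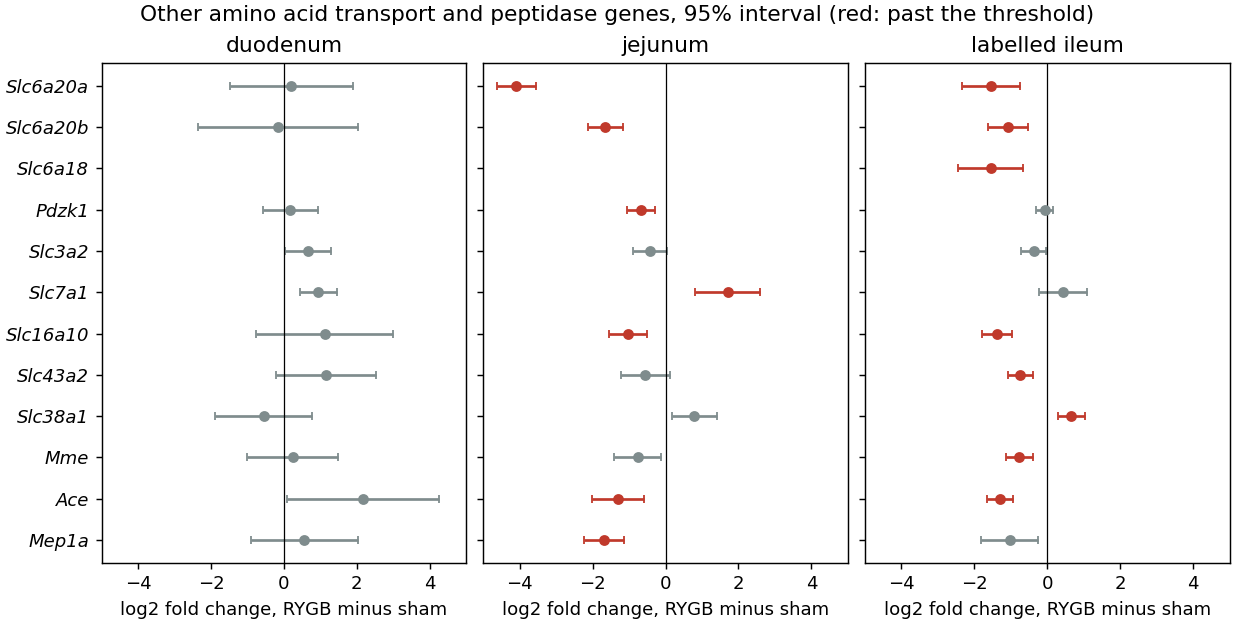
Log2 fold change, RYGB minus sham, with its 95% interval from limma for the transport and peptidase genes called in at least 1 segment and for the partner Slc3a2. Red points passed the threshold. Slc16a10, Ace, Slc6a20a and Slc6a20b are red and below 0 in both the jejunum and the labelled ileum, no gene is red in the duodenum, and Slc6a18 was tested in the labelled ileum only.

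The genes whose pattern over the 24 intestinal libraries lay closest to each member were found by the root mean square difference of log2(CPM + 1), each gene centred on its own mean, among 10520 genes listed in all 3 tables. All libraries of a segment share a table, so the segments set much of this likeness. The nearest to Slc15a1 was Npc1l1, the cholesterol carrier of the brush border, at 0.28. The nearest to Slc7a8 was Slc16a10 at 0.35, the basolateral carrier described above, and the nearest to Anpep was the aminopeptidase Enpep at 0.33. Slc3a1 lay closest to Mep1b, at 0.20, and then to its partner Slc7a9, at 0.23. Slc7a9 lay closest to Myo1a, a motor protein of the microvillus, at 0.19, and Slc6a19 to Rab37 at 0.30. For Dpp4, Slc7a7 and Slc1a1 the nearest were Sgpl1 at 0.27, Soat2 at 0.32 and Gsn at 0.64. The difference was largest for Slc1a1, whose own spread on this scale was 1.29. Anpep had a wider spread, at 1.41, and the differences are not scaled to these spreads.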

How the data were processed

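Male C57Bl6 mice were studied 9 days after RYGB or sham surgery by stranded mRNA sequencing of villi. The authors deposited 1 table per segment. The duodenal values deposited by the authors are CPM rounded to 0.1, and the jejunal and ileal values are of the same kind, with repeated lines (298 in the duodenum, 359 in the jejunum and 326 in the ileum, with equal values) counted once. The totals of the columns, taken over unique genes, were 925122 to 998669. The unit was settled from the values. The submitters' processing notes name HTSeq and GRCm38, and the aligner and annotation are not given in the sources used here. Depth is unknown, so counting intervals and floors are not given.

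RYGB was compared with sham in each segment by limma 3.58.1 (R 4.3.3, empirical Bayes with a trend) on log2(CPM + 1), with genes averaging under 1 CPM left out. A fold change is on that scale and understates the change of low genes. A call needed a Benjamini-Hochberg adjusted p under 0.05 over all genes tested and a fold change of at least 1.5. Partner ratios were compared by exact permutation tests (scipy 1.17.1), and 1 of the pairs tested is not reported here. No test was made between segments, whose tables were normalized separately. The procedure was tested on simulated data. Exon lengths came from GENCODE M21 (GRCm38), and promoter windows from RefSeq (GRCm38.p6). The genes named are the members, every gene of the 3 pathway lists called in a segment with the partner Slc3a2, and the genes nearest in pattern. Marker genes and regional genes, and the single leukocyte and enterocyte genes named, come from marker lists. The members and all lists were chosen with earlier results of these data known. Alternatives were another scaling, pseudocount (0.1 CPM) and minimum (10 CPM or none), a fit without a trend, a lane term, a replicate block, and each library left out.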

Additional observations from a re-analysis of the deposited data

How the results depend on the processing

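The depth is unknown, the groups hold 3 to 5 libraries, and in the labelled ileum lane cannot be told apart from surgery. Counts of genes called moved the most. In the duodenum, with 1 gene called, leaving out 1 library gave 0 to 757 genes and 0 to 1 members, the highest without sham replicate 4. Leaving out sham replicates 1 and 4 together, chosen after seeing the data, gave 460 genes and 3 members, and the enterocyte reference (each library shifted by its mean of Vil1 and Cdh17, also chosen after seeing the data) gave 10 genes, 20% of them higher. In the jejunum, with 1058 genes called, the counts were 664 with a minimum of 10 CPM, 2136 genes and 4 members with the enterocyte reference, 469 genes and 0 members with a lane term, and 462 to 1015 genes and 0 to 3 members with 1 library left out, the lowest without RYGB replicate 2. In the labelled ileum, with 650 genes called, the counts were 333 with a minimum of 10 CPM, 396 with the enterocyte reference, 312 to 766 genes and 1 to 3 members with 1 library left out, the lowest without sham replicate 3, and 1 member with median ratio scaling. That scaling moved the share of calls that were higher from 27.1% to 46.6% there, with 513 of the 650 genes called in both, and moved the median of all genes from −0.09 to 0.00.

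The labels do not say whether libraries with the same replicate number belong together. The correlation of the deviations of same-numbered libraries ran from −0.281 to 0.283, and libraries of different numbers were not compared, so pairing is not settled. With the replicate number as a block, 268 genes and 1 member (Slc7a8, 2.14, adjusted p = 0.0377) were called in the duodenum. Sham replicate 4 has no RYGB library of its number in the duodenum or the jejunum. The block therefore took it out of those comparisons, and the duodenal estimate of Slc7a8 equals that without sham replicate 4. In the labelled ileum the block left Slc6a19 at −0.94 (adjusted p = 0.0591), and in the jejunum it gave Dpp4 −0.0884.

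Signs changed for members with estimates near 0. The enterocyte reference gave Dpp4 −0.26, Slc7a7 −0.32 and Slc3a1 −0.15 in the jejunum, and median ratio scaling gave Slc3a1 0.0628 in the labelled ileum. With 1 library left out, Slc7a7 ran from −0.0311 to 0.14 and Dpp4 from −0.0884 to 0.27 in the jejunum, and Slc3a1 from −0.17 to 0.0713 and Slc1a1 from −0.0463 to 0.56 in the labelled ileum. Of the log2 fold changes of members, 190 kept direction and side of the threshold in the other alternatives. There 5 changed sign, 5 lost a call and 6 gained one. With 1 library left out, 188 kept both, 10 changed sign, 15 lost a call and 3 gained one. Members that were never called count among those that kept both.

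Of the partner ratios in the labelled ileum, with 1 library left out, the difference ran from −0.71 to −0.55 for Slc3a2 to Slc7a7, from 0.91 to 1.21 for Slc3a2 to Slc7a8 and from 0.0873 to 0.25 for Slc3a1 to Slc7a9. For the pairs with Slc3a2 the exact permutation test gave adjusted p between 0.0476 and 0.0635. Each of these 2 pairs was above 0.05 in 9 of the 10 fits, since fewer libraries raise the smallest p that the test can reach. Slc3a1 to Slc7a9 had an adjusted p of 0.0476 without RYGB replicate 4 (exact permutation test). In the duodenum this ratio ran from −0.0427 to 0.17. The cause of the other changes was not tested.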
